A study of Arabidopsis thaliana with 12 samples.

Results

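Line S58-2 of Arabidopsis thaliana was compared with wild type (wt) on Affymetrix ATH1 arrays, a platform that reads each transcript with 1 or more probe sets. The members are the 4 arrays whose labels name S58-2 or wt, 2 of each, out of 12 arrays in the series. All samples came from aerial parts of plants grown on compost at 21 °C with 8 h of light and 16 h of dark and given no treatment, and 20 µg of amplified RNA was labelled per array. Going by its title, the study characterised suppressors of aba3-1, and S58-2 is taken here as such a line. The labels give neither the mutated gene of S58-2, nor its accession background, nor whether it still carries the aba3-1 mutation. The 2 arrays of the aba3-1 mutant, grown in the same way, were used for single comparisons. S58-2 is a single line, so no second allele bears on any difference given here.

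Abscisic acid (ABA) is a plant hormone that closes stomata and switches on genes of drought and cold protection. Its last step of synthesis needs an aldehyde oxidase whose molybdenum cofactor is sulfurated by ABA3, so that aba3-1 plants are short of ABA. ABA signalling is also known to act against the defence pathway of salicylic acid, a hormone that switches on resistance to biotrophic pathogens and takes part in leaf senescence. The comparison of S58-2 with wt asks which transcripts of the line differ from those of wild type. The arrays do not show how much ABA the S58-2 plants contained.

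The 2 S58-2 arrays are not alike in quality, so both arrays, or the differences in both numbers, stand beside most of the values below. On S58-2 replicate 1 the control probe set for the ribosomal RNA of the large subunit read 3.77 on the log2 scale, against 7.19 to 9.78 on the other 11 arrays. The 3′ minus 5′ signal of GAPDH, a measure of RNA integrity and amplification, was 2.06 there, the highest of the 12 arrays, against 1.81 and 1.48 on the wt arrays, and that of ubiquitin 1.57 against 1.08 to 1.43. That of actin, at 5.43, lay within the range of the other 11 arrays (4.74 to 5.51). S58-2 replicate 2 came from 5.1 µg of extracted RNA, the smallest amount of the 12 samples. The median absolute difference between the 2 arrays of a group was 0.42 log2 for S58-2 and 0.28 to 0.37 for the other groups. Overall signal did not set these arrays apart, since the median signal over all 12 arrays ranged from 3.59 to 3.74. Labelled as aerial parts, both S58-2 arrays held high levels of leaf genes, for example 12.46 and 13.36 for RCA, the activase of Rubisco, against 13.19 and 13.34 in wt. The only tested root marker, PYK10, a beta-glucosidase of root endoplasmic reticulum bodies, read 5.99 and 4.91 in S58-2 and 5.05 and 4.63 in wt and did not pass the test (limma adjusted p = 0.523). Of the listed markers, 0 of 6 for flower, 0 of 5 for seed and 0 of 3 for trichome paired with a probe set of exactly 1 gene. For guard cells 1 of 5 did, and it was not among the tested probe sets. The share of these organs and cells was thus not tested, and a missing pairing does not show that a marker was absent.

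In the fit by group alone, more probe sets were called higher than lower in S58-2, but this did not hold in every fit or at every signal level. The 5 named genes with the largest rises were CHI, a putative chitinase, AT4G12490, QQS, AT1G65500 and AT4G00700. Of 11561 probe sets above 4 log2 in at least 2 of 12 arrays, 252 were called higher in S58-2 (2.18%) and 121 lower (1.05%), together 373 (3.23%), by limma at an adjusted p under 0.05. The higher probe sets differed by a median of 1.94 log2 and by up to 5.87, and 117 of them by at least 2. The lower probe sets differed by a median of 1.12 and by up to 3.55, and only 5 of them by at least 2. Among the higher ones, 126 had a wt mean under 4, close to background, where a difference is less certain in size. Among the lower ones, 20 had an S58-2 mean under 4. Of 3000 tested probe sets with a wt mean of at least 7, fewer were called higher (24) than lower (60). Of the called probe sets 172 pair with exactly 1 gene, 113 higher and 59 lower, and only these can be named.

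Both replicate numbers showed the called differences. All 373 had the same sign in number 1 (S58-2 replicate 1 minus wt replicate 1) and in number 2. So had 66.8% of all tested probe sets. The S58-2 and wt arrays of the 373 did not overlap. With 2 arrays per group a call by itself favours both traits, so neither is separate support for the calls. Of the 373, 281 differed by at least 1 log2 in both numbers. Number 2 was the more divergent pair. There 1594 probe sets differed by at least 1 log2 (13.8%), 907 of them higher (7.85%) and 687 lower (5.94%). In number 1 there were 957 (8.28%), 569 higher (4.92%) and 388 lower (3.36%). In both numbers the same way there were 596 (5.16%), 422 higher (3.65%) and 174 lower (1.51%). The standard deviation of the difference over all tested probe sets was 0.80 in number 2 and 0.62 in number 1, and the called higher probe sets had medians of 2.26 and 1.73. With the replicate number as a block, limma called 2621 probe sets (22.7%), 1216 higher (10.5%) and 1405 lower (12.2%), and all 373 were among them. In that fit lower calls outnumbered higher ones. Without the block, leaving out S58-2 replicate 1 gave 402 calls, S58-2 replicate 2 gave 98, wt replicate 1 gave 78 and wt replicate 2 gave 71.

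**Figure D1:**
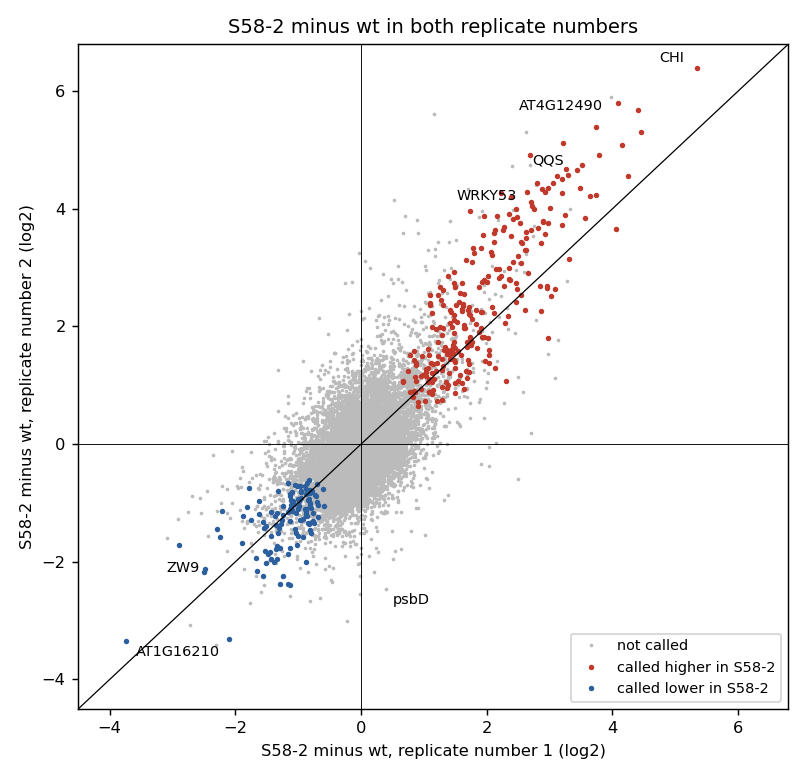
Difference of S58-2 from wt in log2 for each tested probe set, number 1 on the horizontal axis and number 2 on the vertical axis, with the line of equal differences. The 252 called higher probe sets (red) reach 5.87 on average of both numbers, the 121 called lower ones (blue) stay closer to 0, and 261 of the 373 lie farther from 0 in number 2.

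The largest rise was that of CHI. CHI (AT2G43570), a putative chitinase of the kind that attacks fungal cell walls, read 9.68 and 9.39 in S58-2 and 4.33 and 3.0 in wt. The arrays of the groups lay far apart in both numbers (5.35 and 6.39), a mean difference of 5.87 ± 0.71 (SE, n = 2 per group) or 58.5-fold, with adjusted p = 0.00632. On wt replicate 2 CHI was under 4, near background, so the fold is less certain than the direction. AT4G12490, which resembles lipid-transfer proteins, read 7.15 and 7.57 in S58-2 against 2.74 and 1.89 in wt, where it was near background, and rose by 5.05 ± 0.32 (adjusted p = 0.000819). WRKY53, a transcription factor of senescence and defence, read 6.44 and 7.05 in S58-2 and 3.72 and 3.01 in wt. That is a rise of 3.38 ± 0.33, larger in number 2 (4.04) than in number 1 (2.72), with adjusted p = 0.00294. AT1G57630, a protein with the TIR domain found in plant immune receptors, read 6.78 and 8.22 in S58-2 and 3.81 and 3.87 in wt, and its rise of 3.66 (adjusted p = 0.00464) was again the larger in number 2.

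Other genes of the 15 largest rises carry domains that bind calcium or metals. AT5G39670 and AT3G47480, both with EF hands that bind calcium, rose by 3.73 and 3.47 (adjusted p = 0.00755 and 0.0167). The former read 6.69 and 7.66 in S58-2 and 3.49 and 3.40 in wt, and the latter 7.38 and 8.25 against 4.74 and 3.96. By the rule of choice, neither gene had an S58-2 array within the range of wt. Both lie outside the fixed list of calcium-binding proteins, whose 1 tested member, CML42, a calmodulin-like protein, read 3.52 and 4.82 in S58-2 and 3.88 and 5.10 in wt and did not pass the test (-0.32, adjusted p = 0.841). AT4G00700, a C2-domain protein, read 6.37 and 5.76 in S58-2 and 2.32 and 2.11 in wt, a rise of 3.85, and it is one of 2 of the 15 named genes with the larger difference in number 1. AT5G52760, with a heavy-metal-associated domain, rose from 5.28 and 4.31 in wt to 8.33 and 8.74 in S58-2 (3.74, adjusted p = 0.00822). Its neighbour AT5G52750, of the same family and picked out after its values were seen, read 7.85 and 8.63 against 5.69 and 4.76, and rose by 3.02 (adjusted p = 0.00724). AT5G18470, a lectin-like protein, rose by 3.33 (2.89 in number 1 and 3.77 in number 2). AT1G78410, with the VQ motif of WRKY partners, rose by 3.29 (2.38 and 4.2).

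QQS, a gene found only in Arabidopsis that acts on starch and protein content, read 9.02 and 9.15 in S58-2 and 5.59 and 4.50 in wt. The rise of 4.04 ± 0.32 (adjusted p = 0.00182) was seen in both numbers, at 3.43 and 4.65. AT1G65500 rose by 3.93 (3.64 and 4.22), AT2G18690 by 3.52 (3.01 and 4.02), AT1G19020 by 3.23 (3.31 and 3.15) and AT5G38900, a protein with a thioredoxin fold, by 3.13 (2.35 and 3.91). Of the 15 genes, 9 had wt means under 4.

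**Figure D2:**
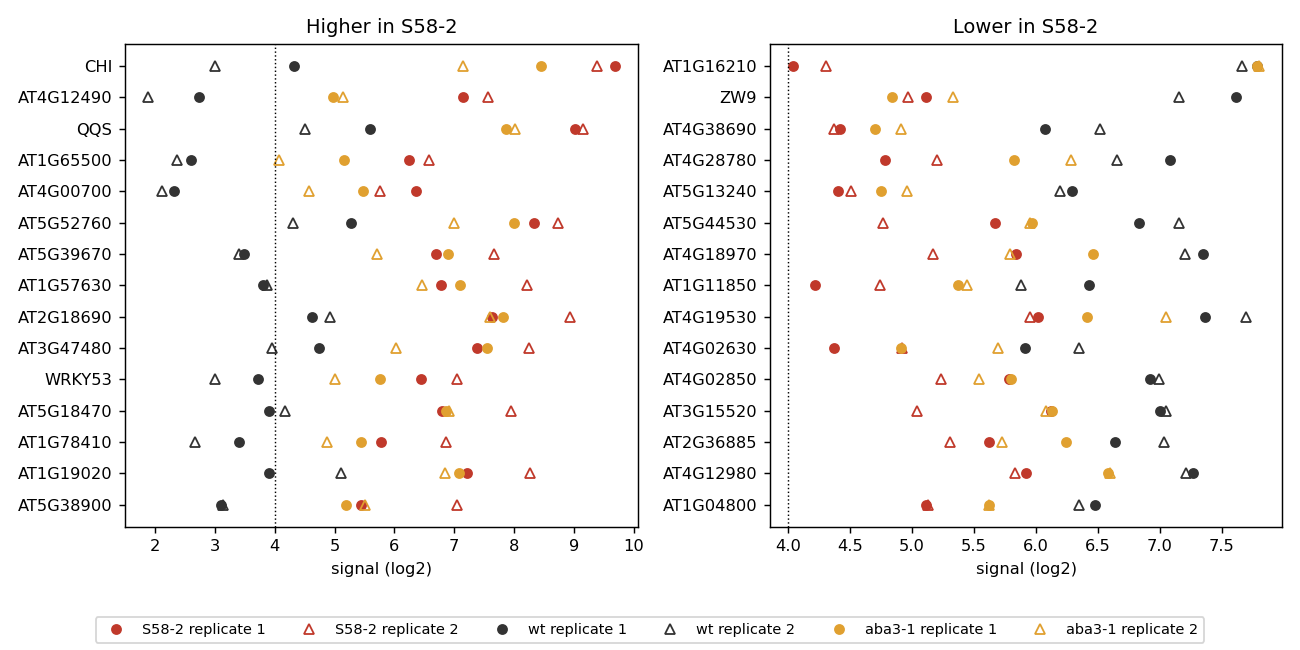
Signal in log2 on the S58-2, wt and aba3-1 arrays for the 15 named higher and 15 named lower genes, replicate 1 as a filled circle and replicate 2 as an open triangle, with a dotted line at 4. S58-2 and wt do not overlap in any of the 30 genes, since the rule that chose them required it. For AT1G16210 the aba3-1 arrays, at 7.78 and 7.80, lie with those of wt.

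Lists of defence and stress genes had few tested members, since few of their loci paired with a probe set of exactly 1 gene. That held for 3 of 26 loci for salicylic acid, 4 of 21 for jasmonate and ethylene and 4 of 10 for leaf senescence. For oxidative and mitochondrial stress it held for 5 of 17. The counts below cover only these parts of the lists. The salicylic acid list, with 3 tested members, had 1 called higher, and the leaf senescence list had 3 of 3 called higher, where 2.18% of all probe sets were. Their medians were 1.76 and 1.26 against -0.03 over all 11561 probe sets, and the lists share SAG101. SAG101, a partner of EDS1 and PAD4 in salicylic acid defence that sits on both lists, read 5.14 and 5.25 in S58-2 and 4.06 and 4.15 in wt, a rise of 1.09 (adjusted p = 0.0336) that lost the call whichever of the 4 arrays was left out (1.04 to 1.15, adjusted p = 0.0671 to 0.155). WRKY6, a senescence regulator, read 4.48 and 4.24 against 2.99 and 3.21 and rose by 1.26 (adjusted p = 0.0453). Both wt arrays of WRKY6 lie under 4, and with values under 4 raised to 4 its difference was 0.36 (adjusted p = 0.351), which leaves 2 of the 3 senescence genes called. It also lost the call whichever of the 4 arrays was left out (adjusted p = 0.119 to 0.164). GRX480, a glutaredoxin that links salicylic acid with jasmonate signalling, read 4.33 and 4.38 in S58-2 and 2.60 on both wt arrays, and it passed the test only with the block (adjusted p = 0.00162 against 0.0504). UGT76B1, a glucosyltransferase of salicylic acid regulation, passed only there too (1.83, adjusted p = 0.0385).

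The jasmonate and ethylene list had 3 tested members and none passed either fit. PDF1.2, a plant defensin of that pathway, read 4.92 and 5.85 in S58-2 and 4.82 and 4.58 in wt (adjusted p = 0.526), level in number 1 and 1.27 higher in number 2. BIK1, a kinase of pattern-triggered immunity, read 5.17 and 5.75 against 4.28 and 4.68 and passed only with the block (adjusted p = 0.0199). Among 4 tested WRKY factors, WRKY53 and WRKY6 were the ones called.

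Of the oxidative and mitochondrial stress list, 1 of 4 tested members was called higher and all 4 were with the block, at a median difference of 1.62. Over all probe sets the shares were 2.18% and, with the block, 10.5%. NDB2, an external NAD(P)H dehydrogenase of mitochondria, read 6.26 and 7.10 in S58-2 and 5.17 and 4.74 in wt and rose by 1.73 (adjusted p = 0.0280). STZ, a zinc-finger repressor of the stress response, read 5.24 and 6.25 in S58-2 but 2.67 and 5.37 in wt. Its wt arrays were thus far apart, and it passed only with the block (adjusted p = 0.0275). TAPX, the ascorbate peroxidase of the thylakoid that removes hydrogen peroxide, went the other way, from 8.38 and 8.44 in wt to 7.45 and 6.86 in S58-2, and fell by 1.26 on the log2 scale (adjusted p = 0.0203).

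Among enzymes of secondary and hormone metabolism, single members moved in opposite directions. Of 10 tested cytochromes P450, 1 was called, CYP71B23, which read 7.47 and 7.35 in S58-2 and 5.25 and 4.50 in wt and rose by 2.54 (adjusted p = 0.0259). With the block 4 of the 10 were higher and 2 lower, where 10.5% and 12.2% of all probe sets were. Of 18 UDP-glycosyltransferases 1 was called in each direction, and with the block 2 were higher and 5 lower. UGT87A2, which acts in flowering time, rose from 5.04 and 4.50 to 6.83 and 7.75 (2.52, adjusted p = 0.0119). UGT76C2, which inactivates cytokinins by N-glucosylation, fell from 5.18 and 5.43 to 3.62 and 3.19, by 1.90 on the log2 scale (adjusted p = 0.00698). Both S58-2 arrays of UGT76C2 lay under 4, near background. It is also on the cytokinin list, whose 4 tested members all had mean differences below 0, at a median of -1.45. Of all 11561 probe sets, 6006 lay below 0. The smallest of the 4 differences was that of UGT76C1 (-0.19), which was 0.09 in number 1 and -0.47 in number 2. ARR15 and RR16, response regulators that cytokinin switches on, passed only with the block (adjusted p = 0.00981 and 0.00324), with differences of -1.64 and -1.26 that were larger in number 2.

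ABA-responsive genes differed in direction. HIS1-3, a linker histone that drought and ABA induce, read 4.38 and 4.05 in S58-2, 3.01 and 3.09 in wt and 2.77 and 2.97 in aba3-1. Within these 3 groups only the S58-2 arrays lay above 4, and the levels in wt and aba3-1 lie near background. The difference from wt was 1.17 (adjusted p = 0.0161), but 0.22 with values under 4 raised to 4 (adjusted p = 0.497). COR15A, a chloroplast protein of cold protection, read 9.67 and 8.07 in S58-2 and 11.17 and 9.27 in wt, and passed only with the block (-1.35, adjusted p = 0.000612 against 0.633 without it). COR15B lay at -0.64 in number 1 and -1.26 in number 2, COR47, a dehydrin, at -0.71 and -0.57, and XERICO, a RING protein that raises ABA levels, at -0.01 and 0.83. Over the 5 tested members the median was -0.64, with 1 called higher (2.18% of all probe sets) and, with the block, 1 higher and 2 lower (10.5% and 12.2%).

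Single members of 2 further families, picked out after their values were seen, were called higher. Of 3 tested glutamate receptor-like ion channels 2 were called, and of 3 tested members with SBT names, subtilases that are secreted serine proteases, 2 were, where 2.18% of all probe sets were. GLR2.7 read 5.81 and 6.55 in S58-2 and 3.26 and 4.02 in wt, a rise of 2.54 that was even in both numbers (2.55 and 2.53, adjusted p = 0.00961). GLR1.4 read 4.59 and 4.52 against 2.71 and 2.62, a difference of 1.89 (adjusted p = 0.00276) from levels near background, which was 0.56 with values under 4 raised to 4 (adjusted p = 0.0454). GLR3.3 did not pass (0 in number 1 and -0.78 in number 2, adjusted p = 0.505). SBT3.3, known for a role in immune priming, differed by 1.61 in number 1 and 2.30 in number 2 (adjusted p = 0.00905), again with wt under 4 (1.03 with such values raised to 4), and SBT3.5 by 1.69 and 1.13 (adjusted p = 0.0166). SBT1.3 did not pass (0.40, adjusted p = 0.696), and AT5G44530, a subtilase without such a name, was called lower. GAMMA-VPE, a protease of the vacuole that matures other enzymes, was abundant in wt at 8.70 and 8.42 and rose to 10.00 and 9.75 (1.32, adjusted p = 0.0213).

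AT1G16210 had the largest fall. It read 4.04 and 4.31 in S58-2, 7.78 and 7.66 in wt, and between 7.66 and 8.12 on all 10 other arrays, so that both S58-2 arrays lay 3.35 log2 or more below the lowest of them. It fell by 3.55 ± 0.18 (SE) on the log2 scale (11.7-fold, adjusted p = 0.000297), with differences of -3.74 in number 1 and -3.35 in number 2. Of its neighbours in the TAIR10.1 annotation, AT1G16170, 3 genes away, read 5.42 and 5.21 in S58-2 and 5.97 and 6.25 in wt. AT1G16180, 2 genes away, went the other way, with 9.13 and 9.31 against 8.43 and 8.66. Neither passed the test without the block (adjusted p = 0.0762 and 0.0586), and both did with it (0.00856 and 0.00763). AT1G16220, the next gene on the other side, was too low to test, at 2.46 to 2.63 on all arrays.

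**Figure D3:**
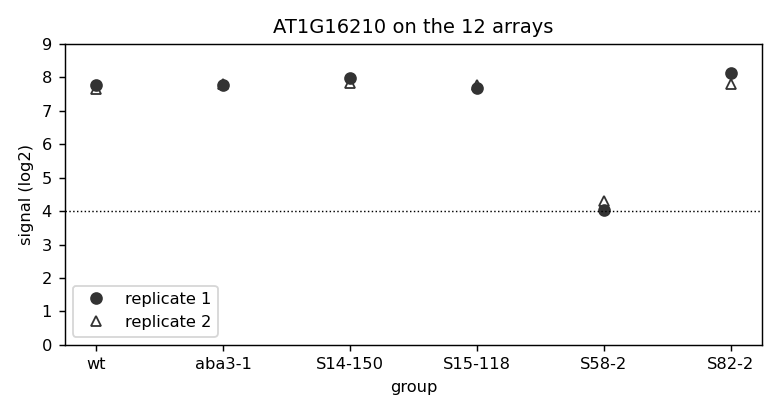
Signal of AT1G16210 in log2 on the 12 arrays by group, replicate 1 as a filled circle and replicate 2 as an open triangle, with a dotted line at 4. Both S58-2 arrays lie at 4.04 and 4.31 and the 10 others between 7.66 and 8.12.

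The other lower genes differed by less. ZW9, a protein with the TRAF-like domain, read 5.11 and 4.97 in S58-2 and 7.61 and 7.15 in wt, and fell by 2.34 on the log2 scale (adjusted p = 0.0115). Its aba3-1 level, 4.84 and 5.33, lay around that of S58-2. AT5G13240, related to the MAF1 repressor of RNA polymerase III, read 4.4 and 4.51 in S58-2 and 6.29 and 6.19 in wt, with replicates closer together than the groups were apart (-1.79 ± 0.15, adjusted p = 0.00182). AT4G28780 and AT4G18970, both lipases of the GDSL type, differed by -1.88 and -1.77 log2 (adjusted p = 0.0167 and 0.0352). The former read 4.78 and 5.20 in S58-2 and 7.08 and 6.65 in wt, the latter 5.84 and 5.17 against 7.35 and 7.20. AT5G44530, a subtilase, differed by -1.16 in number 1 and -2.38 in number 2 (adjusted p = 0.0215). AT4G38690, a phosphodiesterase of the phospholipase C type, differed by -1.65 and -2.15. AT4G19530, an immune receptor of the TIR-NBS-LRR class, read 6.02 and 5.95 in S58-2 against 7.36 and 7.69 in wt (adjusted p = 0.0254). The rest of the 15, among them the cyclophilin-type AT3G15520 and the cytochrome b561 protein AT4G12980, lay between -1.30 and -1.68.

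Photosynthetic and chloroplast genes lay mostly a little below wt. None of the 6 tested members of the photosynthesis list was called. All 6 had differences under 0, as had 6006 of all 11561 probe sets, and their median was -0.39. With the block 2 of the 6 were lower, where 12.2% of all probe sets were. They were SBPASE, an enzyme of the Calvin cycle (11.01 and 10.86 against 11.47 and 11.58, adjusted p = 0.0226), and LHCB4.2, a light-harvesting protein (12.57 and 12.12 against 12.92 and 12.88, adjusted p = 0.0273). The photosystem and chlorophyll list, built from words in gene names and sharing LHCB4.1 and LHCB4.2 with it, had 7 of 8 below 0 and 4 lower with the block. Some abundant genes were picked out after their values were seen. AT1G11860, the T protein of the glycine cleavage complex in photorespiration, fell from 11.09 and 11.04 to 10.30 and 10.24 (adjusted p = 0.0295), and the thylakoid lumen proteins AT4G02530 and AT5G53490 fell by 0.95 and 0.85 on the log2 scale, each in both numbers. In a whole-tissue sample, fewer cells of a type and less RNA per cell cannot be told apart.

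Transcripts encoded in the chloroplast genome depended on the replicate number. Of 65 such probe sets, a set picked out after its values were seen, none was called. With the block 9 were lower, 13.8% of them, close to the 12.2% of all probe sets. Their median difference was 0.02 in number 1 and -0.81 in number 2, with 27 at least 1 log2 lower in number 2 and 2 in number 1. psbD, which encodes a core protein of photosystem II, read 8.83 and 6.63 in S58-2 and 8.43 and 9.10 in wt. So it was 0.40 higher in number 1 and 2.47 lower in number 2, and the other genes with the widest gap that way, ndhE, ndhG and ycf4, were likewise higher in number 1 and lower in number 2. atpF, a subunit of the ATP synthase, was lower in both (-1.23 and -1.91, adjusted p = 0.00440 with the block, 0.129 without). The median level of this set was 9.45 on S58-2 replicate 2, 10.06 on S58-2 replicate 1, 10.08 and 10.73 on wt and 9.43 and 9.59 on the arrays of another line of the series. S58-2 replicate 2 came from 5.1 µg of extracted RNA, the least of the 12 samples. Of the other line, the array with the 9.43, the lowest of the 12, came from 15.0 µg, the most. Its array with the 9.59 came from 6.8 µg. The part of RNA amount in the result was not tested.

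**Figure D4:**
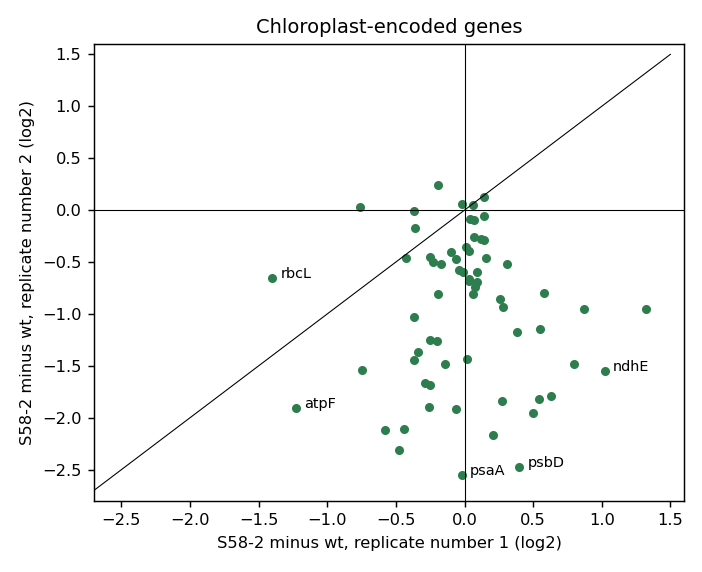
Difference of S58-2 from wt in log2 for the 65 chloroplast-encoded probe sets, number 1 on the horizontal axis and number 2 on the vertical axis, with the line of equal differences. Most points lie below 0 in number 2, at a median of -0.81, and around 0 in number 1, at a median of 0.02.

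In the lists of cytoskeleton and cell wall no gene passed without the block. The list of tubulins and kinesins had 10 tested members, of which POR and PFI are cofactors of tubulin folding. The 8 others all had differences under 0, as had 6006 of all 11561 probe sets, and their median was -0.57. With the block 5 of the 8 were lower, where 12.2% of all probe sets were. TUB6, a beta-tubulin, read 8.74 and 7.91 in S58-2 and 9.43 and 8.92 in wt (adjusted p = 0.186, and 0.00848 with the block). Of 11 members of the list of expansins and xyloglucan transferases, which loosen and rebuild the growing wall, 3 were lower and 1 higher with the block (12.2% and 10.5% of all probe sets). EXPB1, a beta-expansin, read 5.35 and 3.48 in S58-2 and 7.21 and 5.60 in wt. The arrays of number 1 lay above those of number 2 in both groups, and its differences were -1.86 and -2.12 (adjusted p = 0.403, and 0.000829 with the block). SKU5, a protein of directional wall growth, lay at -1.64 and -1.50 (adjusted p = 0.230, and 0.000508 with the block). MSRB6, a methionine sulfoxide reductase, was lower mainly in number 1, with 5.08 and 6.48 in S58-2 and 8.00 and 7.75 in wt.

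Further genes passed only with the block, and in these examples wt replicate 1 lay well above wt replicate 2. AT5G55450, a lipid-transfer protein, read 10.05 and 9.53 in S58-2 and 7.36 and 4.78 in wt. The difference of 3.72 had adjusted p = 0.0980 without the block and 0.000177 with it. AT1G35710, a leucine-rich repeat receptor kinase, read 8.83 and 8.29 against 6.75 and 5.27 (2.55, adjusted p = 0.0990 and 0.000189). AT3G51660, related to the cytokine MIF of animals, read 7.19 and 6.71 against 5.96 and 3.27, so that its difference was 1.23 in number 1 and 3.44 in number 2.

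**Figure D5:**
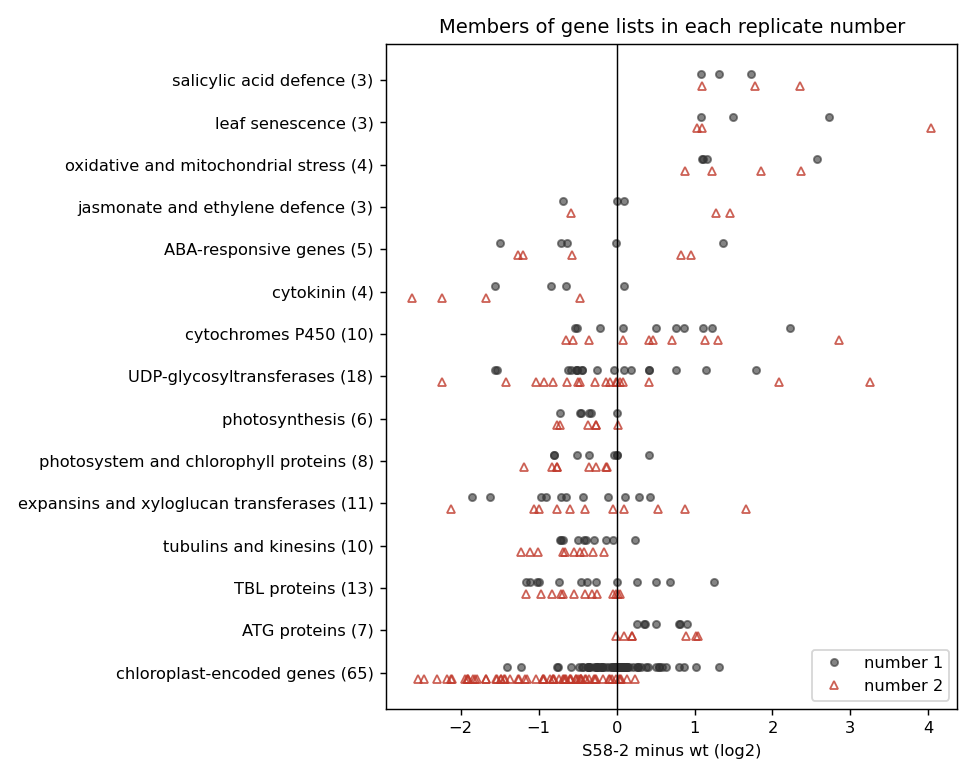
Difference of S58-2 from wt in log2 for the tested members of 15 gene lists, with number 1 as filled circles and number 2 as open triangles and the number of members in parentheses. Salicylic acid, senescence and oxidative stress members lie above 0 in both numbers, tubulins and kinesins, with 2 folding cofactors among them, mostly below 0, and chloroplast-encoded genes around 0 in number 1 and mostly below 0 in number 2.

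The comparison with aba3-1 shares the S58-2 arrays with that against wt, so the levels are given side by side. By mean level, aba3-1 lay on the same side of wt as S58-2 in all 15 named higher genes and in 14 of the 15 lower ones. Both are set against the same wt arrays. The median of S58-2 minus aba3-1 was 1.04 log2 in the higher genes and -0.62 in the lower ones. The rule chose these genes for large differences of S58-2 from wt, which by itself favours S58-2 lying farther from wt than aba3-1. CHI read 8.45 and 7.14 in aba3-1, QQS 7.86 and 8.01, and WRKY53 5.76 and 5.0, levels between those of wt and S58-2. ZW9 and UGT76C2 read 4.84 and 5.33 and 4.09 and 4.53 in aba3-1, and AT1G16210 7.78 and 7.80. Over all probe sets, S58-2 against aba3-1 gave 1 call (0.00865%), AT1G16210, with 414 at an unadjusted p under 0.05. With the block it gave 12 calls (0.104%), and 1481 had an unadjusted p under 0.05. AT4G12490, which read 4.97 and 5.14 in aba3-1, was the one higher gene of the 15 that passed with the block (2.31 above aba3-1, adjusted p = 0.0213, and 0.249 without it). A difference from aba3-1 that missed the threshold does not show equal levels.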

How the data were processed

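Transcript levels were measured on 12 ATH1 arrays, 2 in each of 6 groups. The authors made the deposited log2 values per probe set with GCRMA, per the submitters' processing notes. Its version is not given in the sources used here, and the log base is taken as 2. The deposited table holds 22810 probe sets with no detection calls. After 64 controls were left out, 11561 of 22746 were above 4 in at least 2 arrays and were tested. Genes came from the platform annotation and the RefSeq table of TAIR10.1. Of the tested probe sets 6073 (52.5%) pair with 1 gene, and 935 of these have a symbol other than the locus. Of 259 loci in the lists made by locus, 47 paired with a probe set of 1 gene, so most of their loci could not be looked up. No gene descriptions or sequences were used here, so the search for promoter motifs was not run, and word lists matched symbols and synonyms only.

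Group means were fitted over all 12 arrays with limma 3.58.1 (lmFit, contrasts.fit, eBayes) in R 4.3.3, two-sided, leaving 6 residual degrees of freedom. The Benjamini-Hochberg adjustment ran over all tested probe sets, and the threshold for a call was 0.05. Every adjusted p comes from limma. The replicate numbers pair the arrays. Deviations from the group means correlated between equal numbers in all 15 pairs of groups (r across probe sets from 0.708 to 0.872). Pairs with S58-2 had the lowest values, from 0.708 to 0.724, with 0.722 for wt and S58-2. Pairs without S58-2 ran from 0.798 to 0.872. The fit with the number as a block (5 residual degrees of freedom) therefore stands beside results it changes. Nothing in the labels says that replicates were separate plants, so the p-values reflect only how far these arrays scatter, possibly for technical reasons, and precision is limited by how few they are. The fits were tested on simulated data. Each probe set had the same spread on all 12 arrays there, so arrays of unequal quality were not covered.

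The 4 arrays, the gene lists and the rules were chosen with earlier results of these data known. Named genes were called, differed by at least 1 log2 with the same sign in both numbers and no overlap, had a mean of at least 6 in the higher group and 1 gene, and were the 15 largest per direction. Added to them were 8 per direction called only with the block, 4 per direction with opposite signs in the 2 numbers, and up to 3 called members of each list per direction, or the 2 with the highest mean where none was called. Not all are described. Alternatives were other filters, quantile normalization, array weights, a floor at 4, fewer arrays and the block.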

Additional observations from a re-analysis of the deposited data

Results flagged for a closer look

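AT1G16210 was singled out because its level in S58-2 differed from that in aba3-1 by a test of the difference itself. It lay at -3.615 log2 relative to aba3-1, with a limma adjusted p of 0.000276, and lower in 2 of 2 S58-2 arrays. No explanation was tested.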

How the results depend on the processing

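The 373 calls (252 higher, 121 lower) depended on which arrays entered the fit and on the replicate block. With the replicate block limma called 2621 (1216 higher, 1405 lower) against wt and 12 against aba3-1, and it ended none of the 373 calls. With no filter on low values 208 were lower, and with array weights 147 were called (113 higher, 34 lower). These weights were equal within each group, at 0.57 for both S58-2 arrays, so they could not tell the 2 S58-2 arrays apart. With the 4 arrays of S58-2 and wt alone 0 were called, with 1027 at an unadjusted limma p under 0.05. Leaving out 1 array gave 71 to 402 calls, 62 to 244 higher and 9 to 158 lower. The lone array of the group was assumed to vary like the others. With the replicate block the calls (higher, lower) were 3380 (1498, 1882) without S58-2 replicate 1, 1976 (953, 1023) without S58-2 replicate 2, 1750 (919, 831) without wt replicate 1 and 1094 (629, 465) without wt replicate 2. Against aba3-1 leaving out 1 array gave 1 to 2 calls, and with the block 1 to 548, the 548 being without S58-2 replicate 1. Of 596 probe sets at least 1 log2 apart in both numbers, the stricter filter kept 358 by its own construction. Counting only probe sets with 1 gene, an alternative chosen after seeing the data, left 172 calls (113 higher, 59 lower). Of the 30 genes with the largest changes, 24 were still called without S58-2 replicate 1, 13 without S58-2 replicate 2, 14 without wt replicate 1 and 13 without wt replicate 2. Over 107 named genes and 1591 values under all alternatives, 1293 stayed on the same side of the threshold, 158 lost it, 139 gained it and 1 reversed. That was ndhE, at 1.06 with the replicate block and without S58-2 replicate 2, and the cause was not tested.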

Other observations

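Some genes with a symbol, picked out after their values were seen, fall outside the groups above. Hsp70-2, a heat shock chaperone, read 7.36 and 7.64 in S58-2 and 4.73 and 4.04 in wt and rose by 3.12 (limma adjusted p = 0.00340). RING1, a ubiquitin ligase of programmed cell death, rose from 7.23 and 7.78 to 9.56 and 9.95 (2.25, adjusted p = 0.00410), and TET8, a tetraspanin of extracellular vesicles, from 6.77 and 7.11 to 8.51 and 8.84 (1.74, adjusted p = 0.00747). GTR2, a glucosinolate transporter, rose by 1.08 in number 1 and 0.88 in number 2 (adjusted p = 0.0386). BZIP17, a membrane-bound factor of the endoplasmic reticulum stress response, rose by 1.04 and 1.22 (adjusted p = 0.0407). Of the same response, BZIP60 and the chaperone ATERDJ3B passed only with the replicate block (means of 1.11 and 1.24, adjusted p = 0.0135 and 0.00172).

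Autophagy genes, a family also picked out after its values were seen, had 7 tested members, none called and 3 higher with the block, where 10.5% of all probe sets were. ATG8D, a ubiquitin-like protein of the autophagosome, read 5.59 and 6.11 in S58-2 and 4.69 and 5.22 in wt (adjusted p = 0.0132 with the block). Of 13 tested TBL proteins, which acetylate wall polymers, none was called and 6 were lower with the block, and of 3 CSLC proteins, which make the xyloglucan backbone, none was called and 3 were lower with it, where 12.2% of all probe sets were. CSLC04 read 6.16 and 6.54 against 7.08 and 7.62 (adjusted p = 0.00215 with the block).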
